A study of Homo sapiens with 12 samples.

Results

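The clustered protocadherins are cell adhesion proteins of the cadherin superfamily that are encoded by 3 tandem gene clusters, alpha, beta and gamma, on chromosome 5. They were described here in RNA sequencing of G401 cells, a human malignant rhabdoid tumour line with the genotype SMARCB1(-/-). Members were the gene identifiers whose symbol was PCDHA, PCDHB or PCDHG followed by an isoform number or by a letter and a number, without pseudogenes. Of the 57820 gene identifiers, 51 were members: 15 in the alpha cluster, 15 in the beta cluster and 21 in the gamma cluster. PCDHB16 and PCDHGB5 were not matched by identifier and are not analysed here.

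All groups were G401 cells in which doxycycline induced one protein, and how long it was given is not stated in the labels. The induced protein was GFP, as the control, or SMARCB1. SMARCB1 belongs to the core of some forms of the SWI/SNF (BAF) complexes, the remodellers that move nucleosomes. The cells of each state received for 24 hours either the solvent DMSO or dBRD9-A, a degrader of BRD9, a protein found in the non-canonical form of BAF. The 4 groups had 3 libraries each: GFP DMSO, GFP dBRD9-A, SMARCB1 DMSO and SMARCB1 dBRD9-A. The labels do not say whether the line is a single clone or whether the replicates were separate cultures, so p-values measure the spread between these libraries, which may be technical. SMARCB1 itself had 0 to 2 counts in the 6 GFP libraries and 53033 to 110893 in the 6 SMARCB1 libraries, as their labels state. Within the latter it had 69021 to 110893 counts in SMARCB1 DMSO (38.36 to 58.36 megacounts deep, 1e6 counts each). In SMARCB1 dBRD9-A it had 53033 to 71966 (40.68 to 53.87 megacounts). Whether this lower SMARCB1 level bears on comparisons that use SMARCB1 dBRD9-A was not tested. BRD9 mRNA, which a protein degrader does not remove, had 1483 to 2635 counts in all 12 libraries. Libraries held 34.97 to 58.54 megacounts (1e6 counts), so that 3 counts, taken as the floor, stood for 0.0513 to 0.0858 counts per megacount (CPM). Floors cover counting error only. Replicates of a group differed from each other by more than sampling noise, and unevenly. The chi-square per degree of freedom between 2 replicates was 7.7 to 26.23 in SMARCB1 dBRD9-A and 3.02 to 3.6 in GFP dBRD9-A.

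In vertebrates, above all in neurons, a cell transcribes only a few of these genes. In the alpha and gamma clusters, each isoform has its own promoter and a large variable exon for the extracellular and transmembrane part, which is spliced to constant exons shared by the whole cluster; beta genes are single-exon genes with no shared exon. Most of the promoters carry a conserved sequence element with the core CGCT, and binding of CTCF and cohesin at promoters and at distal enhancers, together with DNA methylation, is known to govern which ones are active. The proteins pair between cells isoform for isoform, and the C-type isoforms at the end of the alpha and gamma clusters are known in neurons to be expressed more constitutively than the others.

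The shared parts bear on every value below. In GENCODE release 29 (GRCh38), the first constant exon of the alpha cluster lies at chr5:140978949-140979007 and that of the gamma cluster at chr5:141494807-141494865, both on the plus strand, and both are coding. They are printed because a read within them cannot be placed in one isoform of its cluster:
alpha constant exon 1: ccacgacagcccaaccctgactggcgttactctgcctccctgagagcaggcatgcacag
gamma constant exon 1: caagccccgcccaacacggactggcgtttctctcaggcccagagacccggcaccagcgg
Of the 130 alpha member values above 0, 69.2% were not whole numbers (more than 0.005 from one), and of the 176 gamma values 88.6% were not, against 0.0% of 91 beta values and 7.0% over all genes. Counts of single alpha and gamma members thus depend on how the authors' counting divided shared reads, and those of beta members do not. Sums over the alpha or gamma members depend on it less, though reads given to PCDHGB5, which shares the gamma constant exons, are not in the gamma sum. The use of strand is not stated, so reads of antisense transcripts in the clusters could not be told apart from those of the members.

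RefSeq (GRCh38.p14) promoter windows, from 250 bases before to 50 bases after the start, were matched by symbol for 45 of the 51 members. The letters CGCT, read on the gene's strand within 100 bases before the start, were present in 42 of the 45 windows (93.3%), against 28.1% of the 35116 windows of all genes; on either strand anywhere in the window, the letters were in 44 members' windows and 70.0% of all windows. A match is only a description of the letters. The 28-base stretches below, 5′ to 3′ with CGCT in capitals, set transcribed members beside members with almost no counts in these cells; 10 members had more than 1 match, and the one farthest from the start is shown. From the alpha cluster, PCDHA12 and PCDHA4 were transcribed and PCDHA2 had at most 1 count in any library:
PCDHA12, chr5:140875246-140875273: cagtcacatgatgtCGCTctacactcag
PCDHA4, chr5:140806981-140807008: gagccacatgatgtCGCTctttaccaca
PCDHA2, chr5:140794783-140794810: tagccacatgatgtCGCTgtccaccata
From the beta cluster, PCDHB2 was transcribed and PCDHB7 had 0 counts in all 12 libraries:
PCDHB2, chr5:141094546-141094573: gagacgcggggtggCGCTgcagccttag
PCDHB7, chr5:141172568-141172595: aaaacgcaaggtggCGCTgctggctaaa
From the gamma cluster, PCDHGB7 and PCDHGA10 were transcribed and PCDHGA8 had at most 3 counts after rounding:
PCDHGB7, chr5:141417609-141417636: cagtgcagagcaagCGCTgacgccgggg
PCDHGA10, chr5:141412933-141412960: aggactctgagcgcCGCTgttcacctac
PCDHGA8, chr5:141392570-141392597: aggactgtaagcgcCGCTgttcacctac
Members with and without counts thus carried the letters CGCT: 12 of the 12 tested members with a window had them, as had 30 of the 33 that were not tested. Only these letters were searched, so a match need not be the conserved element. Around the match, PCDHGB7 has other letters than PCDHGA10 and PCDHGA8. PCDHGA10 and PCDHGA8, of which only the first was tested, have the same 10 letters after the core.

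Few members were transcribed. Of the 51, 14 passed the filter on low counts and were tested: PCDHA4, PCDHA11, PCDHA12, PCDHA13, PCDHAC1 and PCDHAC2 in the alpha cluster, PCDHB2, PCDHB3 and PCDHB14 in the beta cluster, and PCDHGB1, PCDHGA10, PCDHGB7, PCDHGA11 and PCDHGC5 in the gamma cluster. PCDHGB1, PCDHGA11 and PCDHGC5 passed only through the SMARCB1 groups, where they are high, so that their differences between the cell states were favoured by the filter; they are described by their values and left out of the member counts for SMARCB1 against GFP, which rest on the other 11. Of the 37 that were not tested, 2 (PCDHB1 and PCDHB7) had 0 counts in all 12 libraries, which allows up to 3 counts in each, 14 including these were at or under the floor in every library, and the highest count of any was 15. The untested members held 1.13% of the alpha counts, 2.68% of the beta counts and 18.32% of the gamma counts. More than 3 counts in every library of the group were found for 15 members in GFP DMSO, 13 in GFP dBRD9-A, 18 in SMARCB1 DMSO and 18 in SMARCB1 dBRD9-A. These numbers are not adjusted for depth, which was 34.97 to 42.11 megacounts in GFP dBRD9-A and 38.36 to 58.54 in the other groups. The share of all genes at this limit was not computed.

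**Figure D1:**
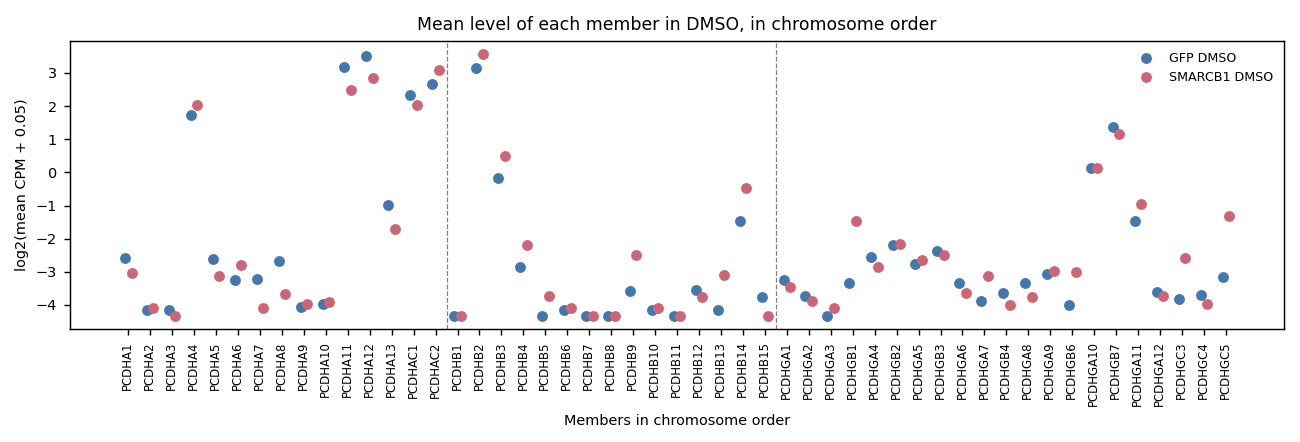
Mean level of each of the 51 members in GFP DMSO and SMARCB1 DMSO cells, in chromosome order; the vertical axis is log2(mean CPM + 0.05), points are means of 3 libraries, and dashed lines part the alpha, beta and gamma clusters. In each cluster a few members stand far above a row of members near the bottom of the axis: PCDHA4, PCDHA11, PCDHA12, PCDHAC1 and PCDHAC2, then PCDHB2, then PCDHGA10 and PCDHGB7.

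Within the alpha cluster, 5 members carried 97.9% of the counts over the 12 libraries. Their mean shares were 28.5% for PCDHA12, 22.9% for PCDHAC2, 21.8% for PCDHA11, 13.5% for PCDHAC1 and 11.2% for PCDHA4. In the beta cluster PCDHB2 alone carried 84.8%. In the gamma cluster PCDHGB7 carried 43.9% and PCDHGA10 22.6%. On the scale of mean CPM per kb of transcript, PCDHB2 had the highest level of the members, at 2.49, followed by PCDHA12 at 1.74, PCDHAC2 at 1.19, PCDHA11 at 1.14, PCDHAC1 at 0.803, PCDHA4 at 0.659, PCDHGB7 at 0.415 and PCDHB3 at 0.313. The C-type isoforms were split: PCDHAC1 and PCDHAC2 were among the 5 leading alpha members, while PCDHGC5, the last gamma gene, reached only 0.0463 CPM per kb, PCDHGC4 had at most 4.49 counts, and PCDHGC3 had at most 1.57 counts in 11 libraries and 13.57 in the first SMARCB1 DMSO library.

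Induced SMARCB1 was compared with GFP first in DMSO. Calls pointed in different directions: the 3 tested beta genes all rose, the leading alpha isoforms PCDHA11 and PCDHA12 fell while PCDHAC2 rose, and the 2 leading gamma isoforms, PCDHGB7 and PCDHGA10, missed the threshold. By edgeR's quasi-likelihood test with Benjamini-Hochberg adjustment over all 15750 genes tested, at adjusted p under 0.05, 5 of the 11 members rose and 3 fell (7 and 3 of all 14 tested). In this comparison 65% of all genes tested changed (33.5% higher, 31.6% lower), so that 8 among 11 is near the background. The median log2 fold change of the 11 was -0.02, against -0.0047 over all genes. By cluster, the medians were -0.50 for 6 alpha members and 0.69 for 3 beta members. In a bulk sample, fewer cells transcribing a gene and less RNA per cell cannot be told apart, and this holds for every difference given here.

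PCDHA12, an alternate alpha isoform, had 10.96, 12 and 11.09 CPM in GFP DMSO and 7.989, 6.527 and 6.734 CPM in SMARCB1 DMSO. PCDHA11, its neighbour, had 9.309, 8.214 and 9.357 CPM in GFP DMSO and 4.997, 6.547 and 5.086 CPM in SMARCB1 DMSO. All SMARCB1 libraries lay below all GFP libraries for both genes. PCDHA12 fell by 0.68 on the log2 scale (SE 0.09, edgeR adjusted p = 2.54e-06) and PCDHA11 fell by 0.70 (SE 0.12, edgeR adjusted p = 8.54e-05).

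PCDHAC2, the last C-type isoform of the cluster, went the other way. It had 6.013, 7.311 and 5.773 CPM in GFP DMSO and 8.559, 8.264 and 8.557 CPM in SMARCB1 DMSO, with no overlap, a log2 fold change of 0.42 (SE 0.09, edgeR adjusted p = 0.000309). PCDHA4 had 3.478, 3.229 and 3.083 CPM against 3.836, 3.885 and 4.3, a log2 fold change of 0.30 (SE 0.13, edgeR adjusted p = 0.0452). PCDHAC1, the other alpha C-type, had 5.753, 4.848 and 4.339 CPM against 4.02, 4.008 and 4.008, a log2 fold change of -0.31 (SE 0.12, edgeR adjusted p = 0.0319). The groups did not overlap for either gene, but both calls were lost with DESeq2 (adjusted p of 0.106 for PCDHA4 and 0.0777 for PCDHAC1) and when single libraries were left out: PCDHA4 lost its call without the second or the third GFP DMSO library, the second GFP dBRD9-A library or any of the SMARCB1 DMSO libraries (edgeR adjusted p up to 0.167), and PCDHAC1 without the first GFP DMSO library or any of the SMARCB1 DMSO libraries (up to 0.211). With spike-in scaling PCDHAC1 was not called either (adjusted p = 0.366). PCDHA13, at 0.2955 to 0.6701 CPM in GFP DMSO and 0.2197 to 0.2832 in SMARCB1 DMSO, missed the threshold (edgeR adjusted p = 0.0683), which it passed without the first GFP DMSO library (0.0285).

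The make-up of the alpha cluster, which does not depend on the scaling of the libraries, differed between the cell states without overlap. PCDHA11 and PCDHA12 together gave 56.7% ± 2.5 of the alpha counts in GFP DMSO and 42.5% ± 1.87 in SMARCB1 DMSO (SD, n = 3), and PCDHAC1 and PCDHAC2 together gave 31.6% ± 1.9 and 42.0% ± 0.88. The lowest GFP DMSO library had 55.03% for the first pair, the highest SMARCB1 DMSO library 43.92%. PCDHA12 had 1.641 to 1.921 times the counts of PCDHAC2 in the GFP DMSO libraries and 0.787 to 0.933 times in SMARCB1 DMSO. These pairs were chosen after their values were seen. The summed alpha level was 35.9 ± 1.33 CPM in GFP DMSO and 29.7 ± 0.387 CPM in SMARCB1 DMSO (SD, n = 3), a log2 difference of -0.27. Cluster sums are descriptions with no test.

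**Figure D2:**
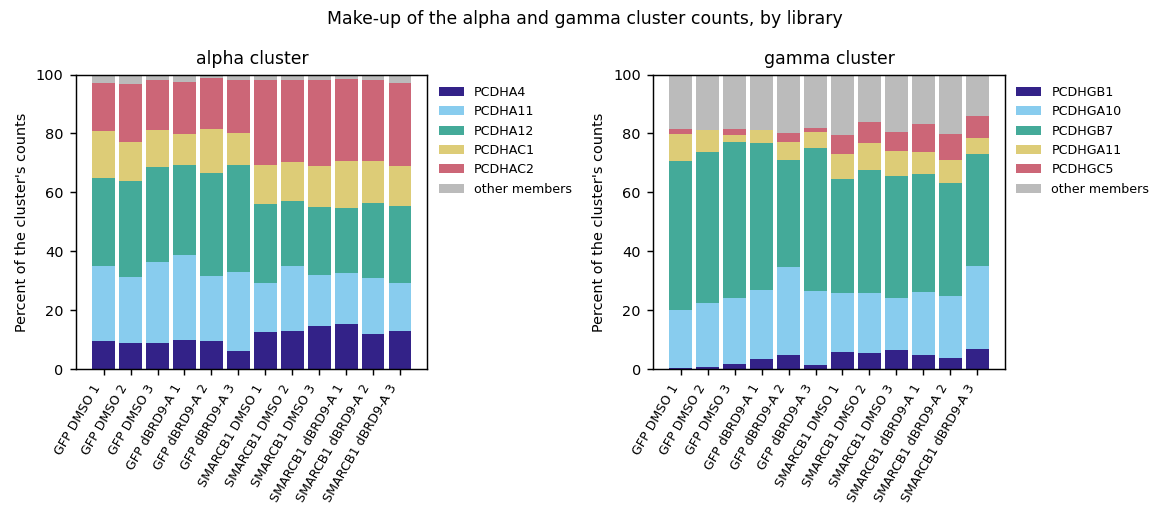
Share of each cluster's counts taken by 5 members (the 5 most abundant in the alpha cluster, the 5 tested in the gamma cluster) and by the other members together, in each of the 12 libraries, for the alpha cluster (left) and the gamma cluster (right); the vertical axis is percent of the cluster's counts. PCDHA11 and PCDHA12 together take 55.03% to 62.97% of the alpha counts in the 6 GFP libraries and 39.47% to 44.39% in the 6 SMARCB1 libraries.

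In the beta cluster, PCDHB2 had 9.038, 8.315 and 9.196 CPM in GFP DMSO and 12.46, 11.8 and 11.42 CPM in SMARCB1 DMSO. It rose without overlap, with a log2 fold change of 0.42 (SE 0.06, edgeR adjusted p = 1.04e-05). PCDHB3, the next gene along the chromosome, had 0.9943, 0.8 and 0.7433 CPM in GFP DMSO and 1.335, 1.21 and 1.531 in SMARCB1 DMSO, with a log2 fold change of 0.69 (SE 0.20, edgeR adjusted p = 0.00586). PCDHB14, near the other end of the cluster, had 0.2308, 0.3879 and 0.3112 CPM against 0.5759, 0.731 and 0.7225, with a log2 fold change of 1.15 (SE 0.31, edgeR adjusted p = 0.0033). The groups did not overlap for any of these genes, none of which shares exons with another member. The summed beta level was 10.2 ± 0.377 CPM in GFP DMSO and 14.4 ± 0.421 CPM in SMARCB1 DMSO (SD, n = 3). PCDHB9, which was not tested and was picked out after its values were seen, had 1 to 2 counts in GFP DMSO and 5 to 6 in SMARCB1 DMSO.

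In the gamma cluster, PCDHGB7 had 2.439 to 2.625 CPM in GFP DMSO and 2.137 to 2.188 in SMARCB1 DMSO, a log2 fold change of -0.23 (SE 0.13, edgeR adjusted p = 0.142), and PCDHGA10 had 0.9846 to 1.13 CPM against 0.9136 to 1.146 (adjusted p = 0.914). PCDHGC5, a C-type isoform, had 4.48, 0 and 6.36 counts in GFP DMSO and 13.65, 14.62 and 19.13 in SMARCB1 DMSO. PCDHGB1 had 1.5, 1.48 and 4.8 counts in GFP DMSO and 12.34, 11.46 and 19.24 in SMARCB1 DMSO. Both genes were above 10 counts in every SMARCB1 DMSO library and under 10 in every GFP DMSO library. The fitted log2 fold changes, 2.42 for PCDHGC5 and 2.52 for PCDHGB1, depend on the prior count of the fit and ran from 1.98 to 3.04 and from 2.28 to 3.21 when single libraries were left out; no p is given, for the reason above. PCDHGA11 had 0.112 to 0.4602 CPM in GFP DMSO, a range that overlapped with 0.4275 to 0.4865 in SMARCB1 DMSO.

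**Figure D3:**
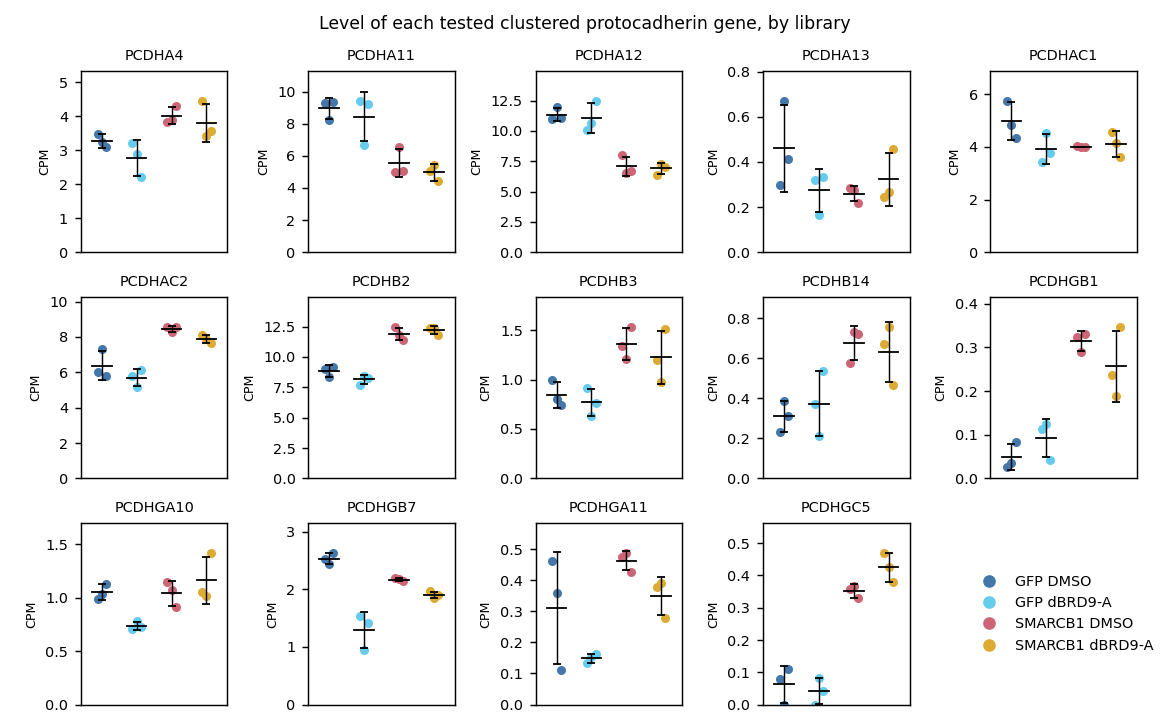
Level of the 14 tested members in each library, in CPM on linear axes that start at 0; points are libraries, horizontal lines are group means and bars are SD (n = 3). In the SMARCB1 groups PCDHA11 and PCDHA12 lie lower and PCDHAC2 and PCDHB2 lie higher than in both GFP groups, and PCDHGB7 is lowest in GFP dBRD9-A, at 0.949 to 1.53 CPM.

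The same comparison was made in cells that had received dBRD9-A, with 6 other libraries in the same fit. The beta genes and PCDHAC2 were again higher with SMARCB1, PCDHA11 and PCDHA12 were again lower, and PCDHGB7 and PCDHGA10 rose. Here 7 of the 11 members rose and 2 fell (10 and 2 of all 14 tested; edgeR, adjusted p under 0.05), against 63.3% of all genes tested (33% higher, 30.4% lower); the median log2 fold change of the 11 was 0.47, against 0.0085 over all genes. Of the 8 called in DMSO, 7 were also called with dBRD9-A (87.5% of the first list and 77.8% of the second), each in the same direction, 5 higher and 2 lower. The call of PCDHAC1 was not among them (log2 fold change of 0.08, adjusted p = 0.629). The share of all genes called in both treatments was not computed, so this overlap is not a result about the members. When the libraries were scaled to the spike-in RNAs, of the 11 only PCDHB2 was called higher and only PCDHA11 and PCDHA12 were called lower; under that scaling 71% of all genes tested were called, 13.5% higher and 57.4% lower.

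PCDHA11 had 9.42, 6.668 and 9.213 CPM in GFP dBRD9-A and 5.072, 5.455 and 4.407 CPM in SMARCB1 dBRD9-A, and fell by 0.76 on the log2 scale (SE 0.13, edgeR adjusted p = 6.55e-05). PCDHA12 had 10.08, 10.64 and 12.48 CPM against 6.369, 7.301 and 7.057, and fell by 0.67 (SE 0.09, edgeR adjusted p = 4.74e-06). PCDHB2 had 7.716, 8.454 and 8.303 CPM against 12.4, 12.39 and 11.84, a log2 fold change of 0.58 (SE 0.06, edgeR adjusted p = 3.3e-07). These 3 genes were separated without overlap between SMARCB1 and GFP libraries in both treatments, as were PCDHA4, PCDHAC2, PCDHB3, PCDHGB1 and PCDHGC5. PCDHGB7 was separated in both as well, but in opposite directions. The share of all genes so separated was not computed.

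PCDHAC2 had a log2 fold change of 0.47 (adjusted p = 0.00019), at 5.176 to 6.111 CPM in GFP dBRD9-A and 7.663 to 8.103 in SMARCB1 dBRD9-A. PCDHGC5 had 0, 3.11 and 1.51 counts in GFP dBRD9-A and 18.85, 23.18 and 16.29 in SMARCB1 dBRD9-A, and PCDHGB1 had 4.79, 4.7 and 1.52 against 9.49, 10.2 and 14.89, without overlap in either gene. PCDHGA11 had 0.1326 to 0.1615 CPM in GFP dBRD9-A and 0.2773 to 0.3897 in SMARCB1 dBRD9-A. The fitted log2 fold changes were 3.21 for PCDHGC5 (2.58 to 3.90 when single libraries were left out), 1.25 for PCDHGB1 (0.94 to 1.45) and 1.15 for PCDHGA11 (1.05 to 1.27). Several calls with dBRD9-A hung on single libraries. PCDHB14, whose groups overlapped, kept its call in 5 of 12 fits without a library: it lost it without the third GFP DMSO library, the second or the third SMARCB1 DMSO library, the first or second GFP dBRD9-A library, or the first or second SMARCB1 dBRD9-A library (edgeR adjusted p up to 0.197). It also lost its call with DESeq2 (adjusted p = 0.124), with only the groups compared (0.0649) and with the replicate block (0.0615). Without the third SMARCB1 dBRD9-A library the adjusted p was 0.0927 for PCDHB3 and 0.0563 for PCDHGA10, without the second GFP dBRD9-A library 0.0679 for PCDHB3, and without the third GFP dBRD9-A or the first SMARCB1 dBRD9-A library at most 0.0583 for PCDHA4. The summed alpha level was 28.2 ± 1.06 CPM in SMARCB1 dBRD9-A and the summed beta level 14.5 ± 0.338 CPM (SD, n = 3).

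PCDHGB7 and PCDHGA10 passed the threshold here and not in DMSO; the test of that difference is the interaction term given further on. PCDHGB7 had 1.531, 0.9487 and 1.411 CPM in GFP dBRD9-A and 1.963, 1.853 and 1.905 in SMARCB1 dBRD9-A, a log2 fold change of 0.55 (SE 0.15, edgeR adjusted p = 0.00449). PCDHGA10 had 0.7073, 0.7814 and 0.7252 CPM against 1.057, 1.018 and 1.416, a log2 fold change of 0.65 (SE 0.19, edgeR adjusted p = 0.00729). In both genes all GFP dBRD9-A libraries lay below all libraries of the 3 other groups.

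**Figure D4:**
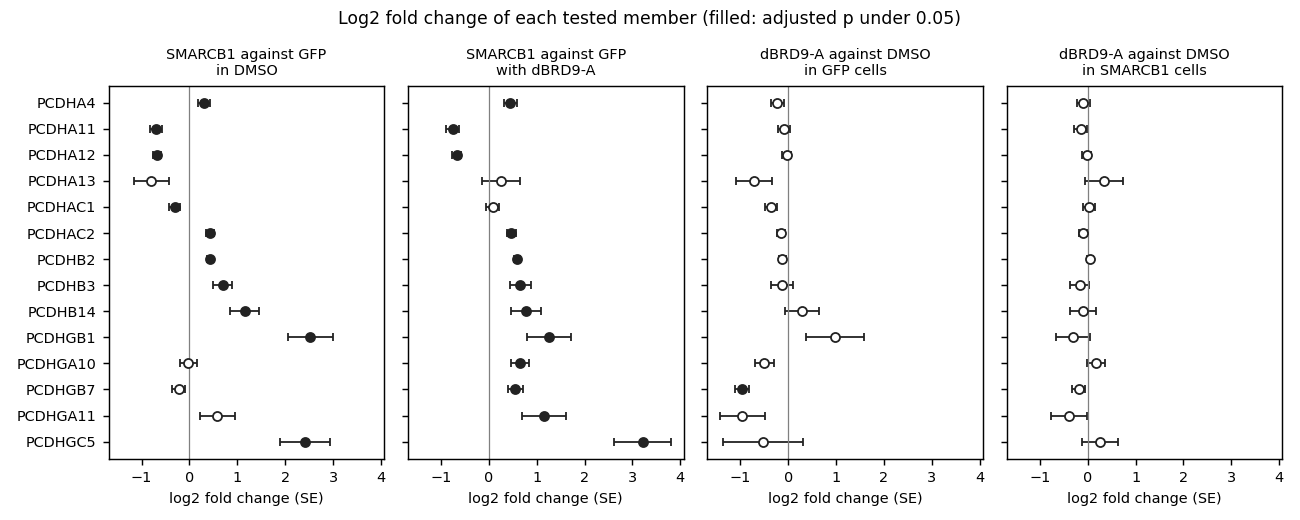
Log2 fold change of the 14 tested members in the 4 comparisons, with SE bars; filled points passed edgeR's test at adjusted p under 0.05. SMARCB1 gives filled points on both sides of 0 in both treatments, with PCDHA11 and PCDHA12 between -0.76 and -0.67, (the filled points of PCDHGB1, PCDHGA11 and PCDHGC5 were favoured by the filter), while dBRD9-A gives 1 filled point in GFP cells, PCDHGB7 at -0.97, and none in SMARCB1 cells.

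In GFP cells, which lack SMARCB1, dBRD9-A gave no called change in the alpha and beta members in the fit described, though some were called in other fits given below, and PCDHGB7, the most abundant gamma isoform, fell. Of the 14 tested members, 1 fell and 0 rose (edgeR, adjusted p under 0.05), against 15.9% of all genes tested (7.43% higher, 8.47% lower). The members' median log2 fold change was -0.19, against -5e-04 over all genes, and 12 of the 14 values were below 0. These numbers include PCDHGB1, PCDHGA11 and PCDHGC5, which had few counts in GFP cells and passed the filter only through the SMARCB1 groups. Without them, 1 of 11 fell, 0 rose and the median was -0.15. At an unadjusted p under 0.05 there were 3 members, PCDHAC1, PCDHGA10 and PCDHGB7, against 27.9% of all genes tested. Scaling to spike-in RNAs moved the median of all genes by 0.36 in this comparison, and with it PCDHA11, PCDHA12 and PCDHB2 were called higher (log2 fold changes of 0.28, 0.32 and 0.24) and PCDHGB7 lower, among 71.8% of all genes tested that were called under that scaling, 70.4% higher and 1.44% lower. Without a call, PCDHA4, PCDHAC2 and PCDHB3 also turned above 0 under that scaling, so the number of values below 0 depends on the scaling.

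PCDHGB7 had 2.534, 2.439 and 2.625 CPM in GFP DMSO and 1.531, 0.9487 and 1.411 CPM in GFP dBRD9-A. The groups did not overlap, and the gene fell by 0.97 on the log2 scale (SE 0.15, edgeR adjusted p = 0.000147). It kept its call in each of the 18 alternative fits run, with log2 fold changes from -1.11 to -0.61 and a highest adjusted p of 0.00199. PCDHGA10, its neighbour in the cluster, had 0.9846, 1.038 and 1.13 CPM against 0.7073, 0.7814 and 0.7252. Its groups did not overlap either, but it missed the threshold (log2 fold change of -0.50, SE 0.19, edgeR adjusted p = 0.0939). PCDHGA11 had 0.4602, 0.3583 and 0.112 CPM against 0.1326, 0.1525 and 0.1615 (adjusted p = 0.192), with 1 GFP DMSO library below the dBRD9-A libraries. Without that library, the third, PCDHGA11 was called lower (log2 fold change of -1.41, edgeR adjusted p = 0.0163). PCDHAC1, at 3.414 to 4.535 CPM in GFP dBRD9-A, had a log2 fold change of -0.35 (edgeR adjusted p = 0.064) and was called lower without the third GFP DMSO library (0.0341) or the second GFP dBRD9-A library (0.0305), and without the filter on low counts.

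The summed gamma level was 4.92 ± 0.126 CPM in GFP DMSO and 2.86 ± 0.232 CPM in GFP dBRD9-A (SD, n = 3), a log2 difference of -0.79, or -0.43 with spike-in scaling. The highest GFP dBRD9-A library had 3.06 CPM and the lowest GFP DMSO library 4.78. This sum does not change with how shared reads were divided among the 21 members. The summed alpha level was 32.5 ± 2.09 CPM in GFP dBRD9-A and the beta level 9.52 ± 0.248 CPM; both were lower than in GFP DMSO by 0.14 and 0.10 on the log2 scale, and higher with spike-in scaling, by 0.21 and 0.26. PCDHA11 and PCDHA12 together held 59.9% ± 2.93 of the alpha counts in GFP dBRD9-A (SD, n = 3), a range of 57.13% to 62.97% that overlapped with GFP DMSO.

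**Figure D5:**
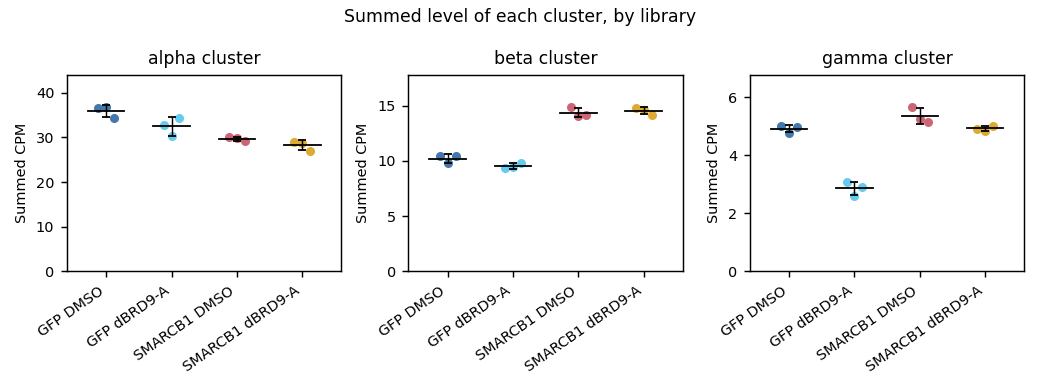
Summed level of the members of each cluster in each library, in CPM on linear axes that start at 0; points are libraries, lines are means and bars are SD (n = 3). The gamma sum is 2.61 to 3.06 CPM in GFP dBRD9-A and 4.78 to 5.65 CPM in the 3 other groups, and the beta sum is 9.33 to 10.4 CPM in the GFP groups and 14.1 to 14.8 CPM in the SMARCB1 groups.

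In cells with induced SMARCB1, dBRD9-A gave no called change in any tested member: 0 of 14 by edgeR's quasi-likelihood test (adjusted p from 0.627 to 0.951), 0 at an unadjusted p under 0.05 (12.7% of all genes tested) and 0 with DESeq2. In this comparison 1.93% of all genes tested changed (0.679% higher, 1.25% lower). Log2 fold changes of the members lay between -0.39 and 0.34, with a median of -0.09 against 0.0028 over all genes. PCDHGB7 had 2.188, 2.185 and 2.137 CPM in SMARCB1 DMSO and 1.963, 1.853 and 1.905 CPM in SMARCB1 dBRD9-A, a log2 fold change of -0.19 (SE 0.14, edgeR adjusted p = 0.627). The summed gamma level was 5.35 ± 0.271 CPM in SMARCB1 DMSO and 4.93 ± 0.088 CPM in SMARCB1 dBRD9-A (SD, n = 3).

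The difference between the responses to dBRD9-A in SMARCB1 and in GFP cells is the interaction term of the fit. It passed the threshold for 1 of the 14 tested members, against 3.8% of all genes tested (2.15% positive, 1.65% negative). Without PCDHGB1, PCDHGA11 and PCDHGC5, which passed the filter only through the SMARCB1 groups, it was 1 of 11. The member called was PCDHGB7, with a difference of 0.78 on the log2 scale (SE 0.20, edgeR adjusted p = 0.0378). The call was held in 2 of 12 fits without a library, those without the first GFP dBRD9-A library or the second SMARCB1 dBRD9-A library; it was lost in the others (highest adjusted p of 0.0994), with DESeq2 (adjusted p = 0.0865) and with spike-in scaling (adjusted p = 0.304), under which 71.6% of all genes tested were called, 0.419% positive and 71.1% negative. PCDHGA10 had a difference of 0.67 (SE 0.26, edgeR adjusted p = 0.204). At an unadjusted p under 0.05 there were 3 members, PCDHAC1, PCDHGA10 and PCDHGB7, as in GFP cells, against 15.9% of all genes tested; the interaction uses those GFP libraries too.

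Genes related to the clusters by family, control, partnership or position were taken as lists, to be read against the shares of all genes called in the same comparisons (65% for SMARCB1 in DMSO, 63.3% with dBRD9-A, 15.9% for dBRD9-A in GFP cells). Of 12 non-clustered protocadherins, which are single genes elsewhere in the genome, 6 were tested. With SMARCB1 3 were called higher and 2 lower in DMSO, as with dBRD9-A, but 4 of these 5 were at or under the floor in every library of one cell state and passed the filter through the other: PCDH7, PCDH9 and PCDH18 through the SMARCB1 groups and PCDH17 through the GFP groups. Their calls were thus favoured by the filter, and no median is given. PCDH10, at 6.79 ± 0.362 CPM in GFP DMSO and 2.31 ± 0.342 CPM in SMARCB1 DMSO (SD, n = 3), had a log2 fold change of -1.53 (SE 0.11, edgeR adjusted p = 1.34e-09), and of -1.61 with dBRD9-A.

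Of 19 regulators, among them the CTCF and cohesin genes and DNA methyltransferases, all were tested; with SMARCB1 6 rose and 7 fell in DMSO (median log2 fold change of -0.02) and 7 rose and 8 fell with dBRD9-A. DNMT3B, a de novo DNA methyltransferase, fell from 168.8 ± 6.41 to 93.9 ± 2.55 CPM in DMSO (SD, n = 3; log2 fold change of -0.85, edgeR adjusted p = 1.17e-13). ATF7IP, a partner of the histone methyltransferase SETDB1, rose with a log2 fold change of 0.60 (edgeR adjusted p = 1.74e-09). In GFP cells dBRD9-A gave 1 call in this list, DNMT3B, with a log2 fold change of 0.18 (edgeR adjusted p = 0.000704), and its interaction term was -0.17 (edgeR adjusted p = 0.0488).

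Of 16 genes for partner proteins and for the proteases that cut the proteins, 14 were tested; with SMARCB1 8 rose and 3 fell in DMSO (median log2 fold change of 0.12) and 10 rose and 2 fell with dBRD9-A. ADAM10, the metalloprotease that sheds the extracellular part, had a log2 fold change of 0.63 in DMSO (edgeR adjusted p = 8.75e-13). Of 12 other genes on chromosome 5 around the clusters, 11 were tested; with SMARCB1 6 rose and 2 fell in DMSO (median log2 fold change of 0.11) and 7 rose and 2 fell with dBRD9-A. FCHSD1 had a log2 fold change of 1.78 and DIAPH1, a formin, one of 0.48 in DMSO (edgeR adjusted p of 6.07e-10 and 5.32e-10). In GFP cells dBRD9-A gave 1 call in each of these lists: NCSTN, a gamma-secretase subunit, at -0.14 (edgeR adjusted p = 0.0305) and HARS2, the mitochondrial histidyl-tRNA synthetase, at -0.18 on the log2 scale (edgeR adjusted p = 0.0123). Both changes are smaller than the 0.36 by which spike-in scaling moved the median of all genes in this comparison. For the interaction that scaling moved the median by -0.50, more than the interaction term of DNMT3B. Values of the list genes under that scaling are not given. In SMARCB1 cells edgeR called 0 genes of the 4 lists; at an unadjusted p under 0.05 there were 1, 3, 0 and 1 in the order given, of 6, 19, 14 and 11 tested, against 12.7% of all genes tested.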

How the data were processed

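The authors deposited 3 tables of RSEM expected counts per gene, each with 2 groups side by side; the 6 library columns found in more than 1 table were identical. Per the submitters' processing notes, STAR, RSEM 1.3.1, DESeq2 and the builds GRCh37 and hg19 were used; the annotation and the use of strand are not given in the sources used here. Per the labels' protocols, RNA came from a Qiagen RNeasy Plus kit and libraries from a TruSeq Stranded mRNA kit. Expected counts were rounded to whole numbers for the tests. Spike-in RNAs (40 identifiers, 0.963% to 1.302% of counts) were left out of library sizes. Symbols were matched by unversioned identifier for 51996 of 57820.

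All 12 libraries were fitted with edgeR 4.0.16 in R 4.3.3 (filterByExpr with its minimum count of 10, TMM factors 0.9765 to 1.0161, quasi-likelihood test, Benjamini-Hochberg adjustment). SE were derived from the quasi-F statistic. The fit was tested on simulated data. CPM are on TMM-scaled library sizes. DESeq2 1.42.0, spike-in and RLE scaling, no filter, only the groups compared, a replicate block, a limit on the fold change and single libraries left out were the alternatives.

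The members and lists were chosen with earlier results of these data known. Named genes were up to 3 members per comparison with the largest called rise and fall, the 2 most abundant of each cluster, all C-types, and up to 2 called genes per list with at least 50 counts; other named genes were chosen after their values were seen. One item is not reported here.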

Additional observations from a re-analysis of the deposited data

Results flagged for a closer look

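The response of PCDHGB7 to dBRD9-A differed between SMARCB1 and GFP cells by 0.78 on the log2 scale (SE 0.20, edgeR adjusted p = 0.0378 for the interaction): the log2 fold change was -0.97 in GFP cells and -0.19 in SMARCB1 cells. All 3 GFP dBRD9-A libraries lay below the 9 others. The interaction's adjusted p ranged from 0.0195 to 0.304 over its alternatives and passed 0.05 in 5 of 17.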

How the results depend on the processing

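PCDHA11, PCDHA12 and PCDHB2 kept their SMARCB1 calls in both treatments, and PCDHGB7 its fall in GFP cells, in each of the 18 fits. Counts here are of all members present in the fit in question. The main fit held the 14 tested members, while fits with another filter or other libraries could hold more or fewer. The counts include PCDHGB1, PCDHGA11 and PCDHGC5, whose differences between the cell states were favoured by the filter. Members called with a log2 fold change of at least 1 in size numbered 3, 0, 3 and 0 for SMARCB1 in DMSO, dBRD9-A in GFP cells, SMARCB1 with dBRD9-A and the interaction. They were PCDHB14, PCDHGB1 and PCDHGC5 in DMSO, and PCDHGB1, PCDHGA11 and PCDHGC5 with dBRD9-A. All but PCDHB14 were among the members favoured by the filter, and the share of all genes at this limit was not computed. Spike-in scaling gave 4 for dBRD9-A in GFP cells (3 higher, 1 lower), 4 for SMARCB1 with dBRD9-A (2 and 2) and 5 for the interaction (all negative), and moved the median of all genes by 0.17, 0.36, -0.14, -0.33 and -0.50 in SMARCB1 in DMSO, dBRD9-A in GFP cells, dBRD9-A in SMARCB1 cells, SMARCB1 with dBRD9-A and the interaction. Among values it made pass the threshold, it turned the sign for dBRD9-A in GFP cells of PCDHA11 (0.28), PCDHA12 (0.32), and PCDHB2 (0.24), and of the interaction of PCDHA12 (-0.50), PCDHAC2 (-0.45) and PCDHB2 (-0.34). Without a call, it turned PCDHA4 (0.13), PCDHAC2 (0.20) and PCDHB3 (0.23) for dBRD9-A in GFP cells and the interaction of PCDHA4 (-0.35) and PCDHAC1 (-0.11), as well as the alpha (0.21) and beta (0.26) sums, among others. Whether the spike-ins were matched to cells or to RNA is not stated, and the cause was not tested. Without the filter on low counts, dBRD9-A in GFP cells gave 3 members, all lower; DESeq2 gave 0 for the interaction. With single libraries left out, counts ran from 8 to 11 for SMARCB1 in DMSO, 9 to 13 for SMARCB1 with dBRD9-A, 1 to 3 for dBRD9-A in GFP cells (3 without the third GFP DMSO library, 2 without the second GFP dBRD9-A library) and 0 to 1 for the interaction. Libraries with the same replicate number were not more alike than others (r of -0.056 to 0.061 in 18 same-number pairs, -0.054 to 0.074 in different-number pairs). The labels do not say whether a number stands for a shared day or batch, and these correlations over all tested genes cannot decide it. With the number as a replicate block the counts were 10, 1, 0, 11 and 1, in the order above. The shares of all genes called without the filter, with DESeq2, without single libraries and with the replicate block were not computed. The counts under these settings are therefore not results about the members. Depth limits the 37 untested members.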
